A study of Triticum aestivum with 48 samples.

Results

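THI1.1 and THI1.3 are wheat thionin genes, represented here by 4 of the 61290 probe sets of the Affymetrix Wheat Genome Array. They were taken as all probe sets that the platform annotation pairs with either gene by symbol or synonym. THI1.1 (Entrez gene 543305) has a probe set with an ID ending in _s_at and one ending in _x_at, called THI1.1_s and THI1.1_x here, and THI1.3 (Entrez gene 543413) has one with a plain _at ending and one ending in _x_at, called THI1.3_at and THI1.3_x. THI1.3 was chosen from its measured difference between low and control nitrogen in shoots, so the shoot nitrogen values are given below as a description with no test. Within their arrays, control shoots of the genotype K307 stood above the root arrays of K307 and all arrays of HD2967 and K9107 for all 4 probe sets, and its low nitrogen shoots did so for 3, while the levels were uneven in shoots of the genotype CL. How many of all probe sets do the same was not counted.

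Thionins are small, cysteine-rich plant peptides that are toxic to bacteria and fungi because they disturb their membranes. They are made as precursors with a signal peptide and an acidic tail that is cut away. In cereals they are best known from the grain, where the wheat endosperm forms are called purothionins, and related thionins occur in the leaves of barley. The annotation gives THI1.1 the synonyms Pur-B1 and Pur-D1, and THI1.3 the synonym Pur-A1, which are names of purothionin loci. It names neither gene as a leaf thionin, so both are called by their symbols here. The suffixes _s_at and _x_at mark probe sets whose probes can match more than 1 transcript, and homoeologous copies on the 3 wheat subgenomes may not be told apart. THI1.2, with the synonyms Pur and Pur-B1, has 1 probe set and was followed as a related gene that is not a member.

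The study measured total RNA of 4 bread wheat genotypes: K307, HD2967, K9107 and CL, which stands for Chotilarma. Seedlings were grown for 15 days in vermiculite and perlite, with 5 seeds in a pot, and received 8 mM calcium nitrate (control) or 0.08 mM (low N, labelled stressed) as their nitrogen source. Roots and shoots gave 16 groups of 3 arrays, 48 arrays in all. The labels do not say whether an array stands for 1 plant, 1 pot or a pool, so the p-values measure the spread between these arrays, which may be technical.

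The deposited values are log2 signals, and the arrays fell into 4 sets of 12 by their median signal, at 1.14 to 1.26, 4.33 to 4.47, 4.61 to 4.68 and 5.32 to 5.39 (sets 1 to 4). The 12 CL arrays alone made up set 1, and the scale and the genotype of CL cannot be told apart. The other 3 sets mix groups, and set was a term of every fit. The percentile of a probe set within its own array was used to put levels of all arrays side by side. The photosynthesis gene OEE1, which encodes a subunit of the oxygen-evolving complex, placed every array with its labelled tissue: it lay at the 66.8th to 80.7th percentile in the 24 root arrays and at the 98.1st to 99.9th in the 24 shoot arrays. That includes CL root low N array 1, for which 1 of the labels reads shoot, and HD2967 shoot low N array 1, for which 1 label is cut short within the word root. OEE1 is 1 of 36 probe sets on the shoot marker list, and not all of these part the tissues. The median percentile of the whole list was 13.3 to 33.0 in the root arrays and 23.3 to 62.7 in the shoot arrays. These ranges overlap, so the list as a whole does not place each array. It also holds probe sets of rbcl, the large subunit of Rubisco, which are not described singly here. The highest of the list in roots was of rbcl, at 98.7. A probe set of FBP reached 78.3 in roots and began at 71.8 in shoots. Another of FBP and 1 of petC were low in both tissues, with medians of 19.5 and 11.1 in roots and 15.5 and 14.6 in shoots. The probe sets of PRK and OEE2 and the other of petC did not overlap between tissues. CL root low N array 1 was kept as root; it had the highest THI1.3 percentiles of the 24 root arrays, 56.1 for THI1.3_at and 45.1 for THI1.3_x.

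In K307 control shoots the 4 probe sets had their highest log2 signals of the series. THI1.1_s had log2 signals of 7.60, 7.47 and 6.80 in arrays 1, 2 and 3. THI1.1_x had 5.29, 4.65 and 4.60. THI1.3_at had 5.72, 5.44 and 5.17, and THI1.3_x had 7.17, 6.48 and 6.19. Array 1 was the highest of the 3 for all 4 probe sets. In the roots of the same genotype at control N, the 3 arrays lay between 2.62 and 3.88 for THI1.1_s, between 2.65 and 3.62 for THI1.1_x, between 1.32 and 2.71 for THI1.3_at, and between 1.64 and 2.68 for THI1.3_x. No root array reached the lowest of the control shoot arrays for any of the 4. The share of all probe sets for which this holds was not counted.

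**Figure D1:**
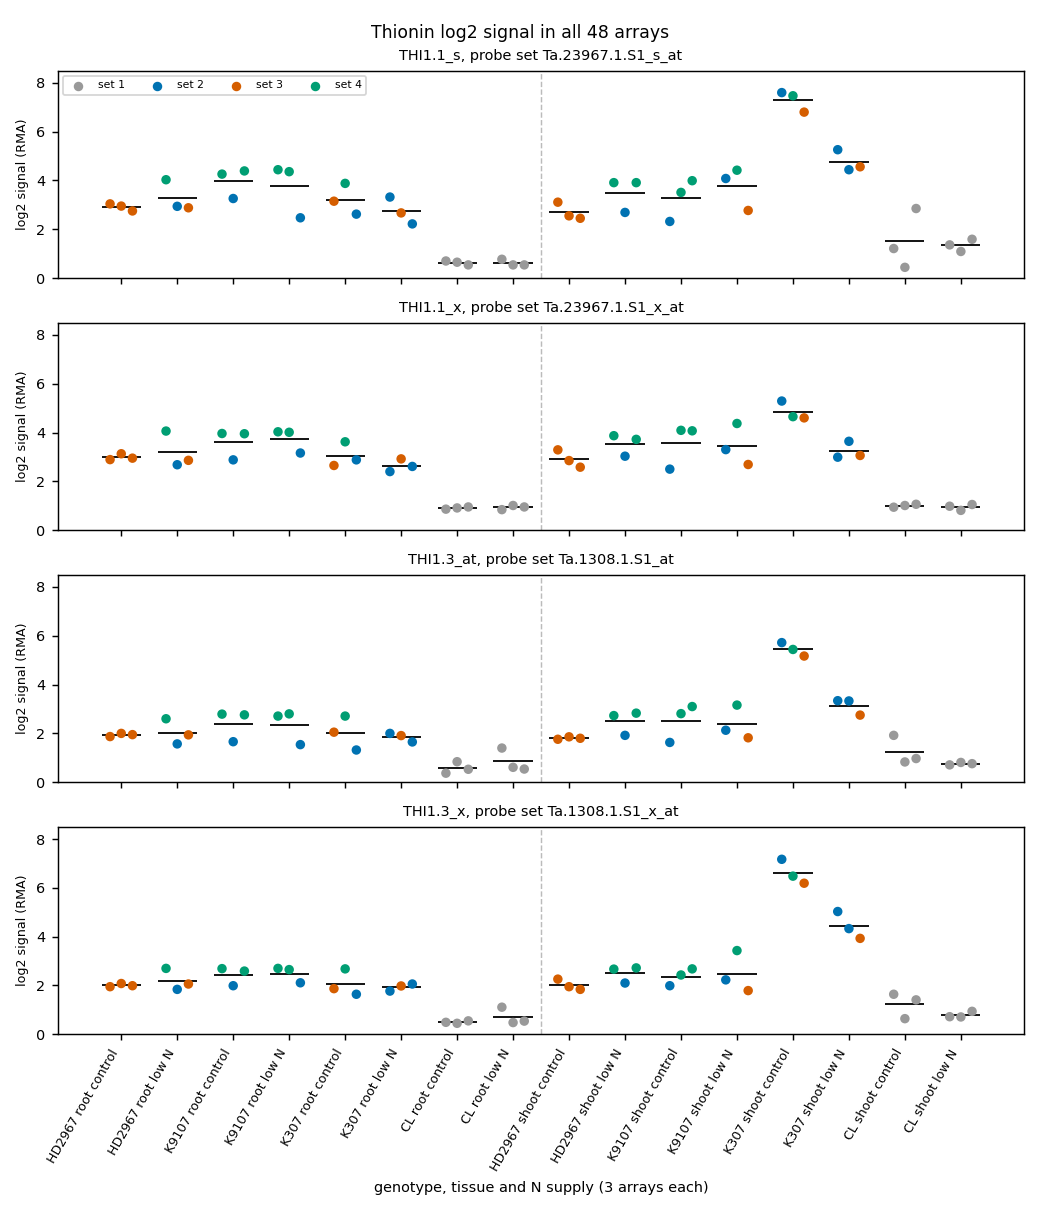
Log2 signal of the 4 probe sets of THI1.1 and THI1.3 (vertical axis) in each of the 48 arrays (points, coloured by set of array medians), by genotype, tissue and N supply (horizontal axis). Horizontal bars are means of 3 arrays; the K307 control shoots stand above all other groups in each panel, and the CL arrays lie low, as the medians of their arrays do.

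Within their arrays, the K307 control shoots placed THI1.1_s at the 76.5th to 84.8th percentile and THI1.3_x at the 65.4th to 81.0th. THI1.3_at lay at the 50.8th to 66.0th percentile and THI1.1_x at the 38.7th to 60.9th. In the 30 arrays that were neither K307 shoots nor CL, the highest percentiles were 45.5, 34.8, 12.5 and 18.1 for THI1.1_s, THI1.1_x, THI1.3_at and THI1.3_x, with medians of 24.7, 24.2, 3.1 and 3.5. The K307 control shoots did not overlap with these 30 arrays for any member. The share of all probe sets that part the arrays in this way was not counted. CL arrays did overlap with the K307 control shoots. For THI1.3_at, CL control shoot array 1 lay at the 68.5th percentile, above all 3 of them. The CL shoots reached 45.8 for THI1.1_x and 78.3 for THI1.1_s. Only for THI1.3_x did they stay below, at up to 62.1. The files hold no background or detection call, so a percentile near the bottom of an array does not separate a low signal from none.

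The order of the groups is given for THI1.3_x and THI1.1_s. For THI1.3_x the median percentile was 70.0 in K307 control shoots, 56.8 in CL control shoots, 49.3 in K307 low N shoots and 25.3 in CL low N shoots. K9107 low N shoots followed at 12.4, with a range of 1.0 to 18.1, and the other 11 groups had medians between 1.8 and 7.6. CL control shoots, at 10.1 to 62.1, overlapped with K307 low N shoots, at 39.8 to 58.0, and both lay below the K307 control shoots, at 65.4 to 81.0. Below K307 and CL shoots, the neighbouring groups overlapped.

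THI1.1_s gave a median percentile of 76.6 in K307 control shoots, 55.5 in CL low N shoots, 50.7 in K307 low N shoots and 47.5 in CL control shoots. The other 12 groups had medians between 7.2 and 35.5, the highest of them K9107 low N shoots, with arrays from 17.5 to 45.5. The CL control shoots had the widest range of the 16 groups for this probe set, from 1.2 in array 2 to 78.3 in array 3. In the 6 CL shoot arrays the log2 signal of this probe set lay between 0.44 and 2.85.

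**Figure D2:**
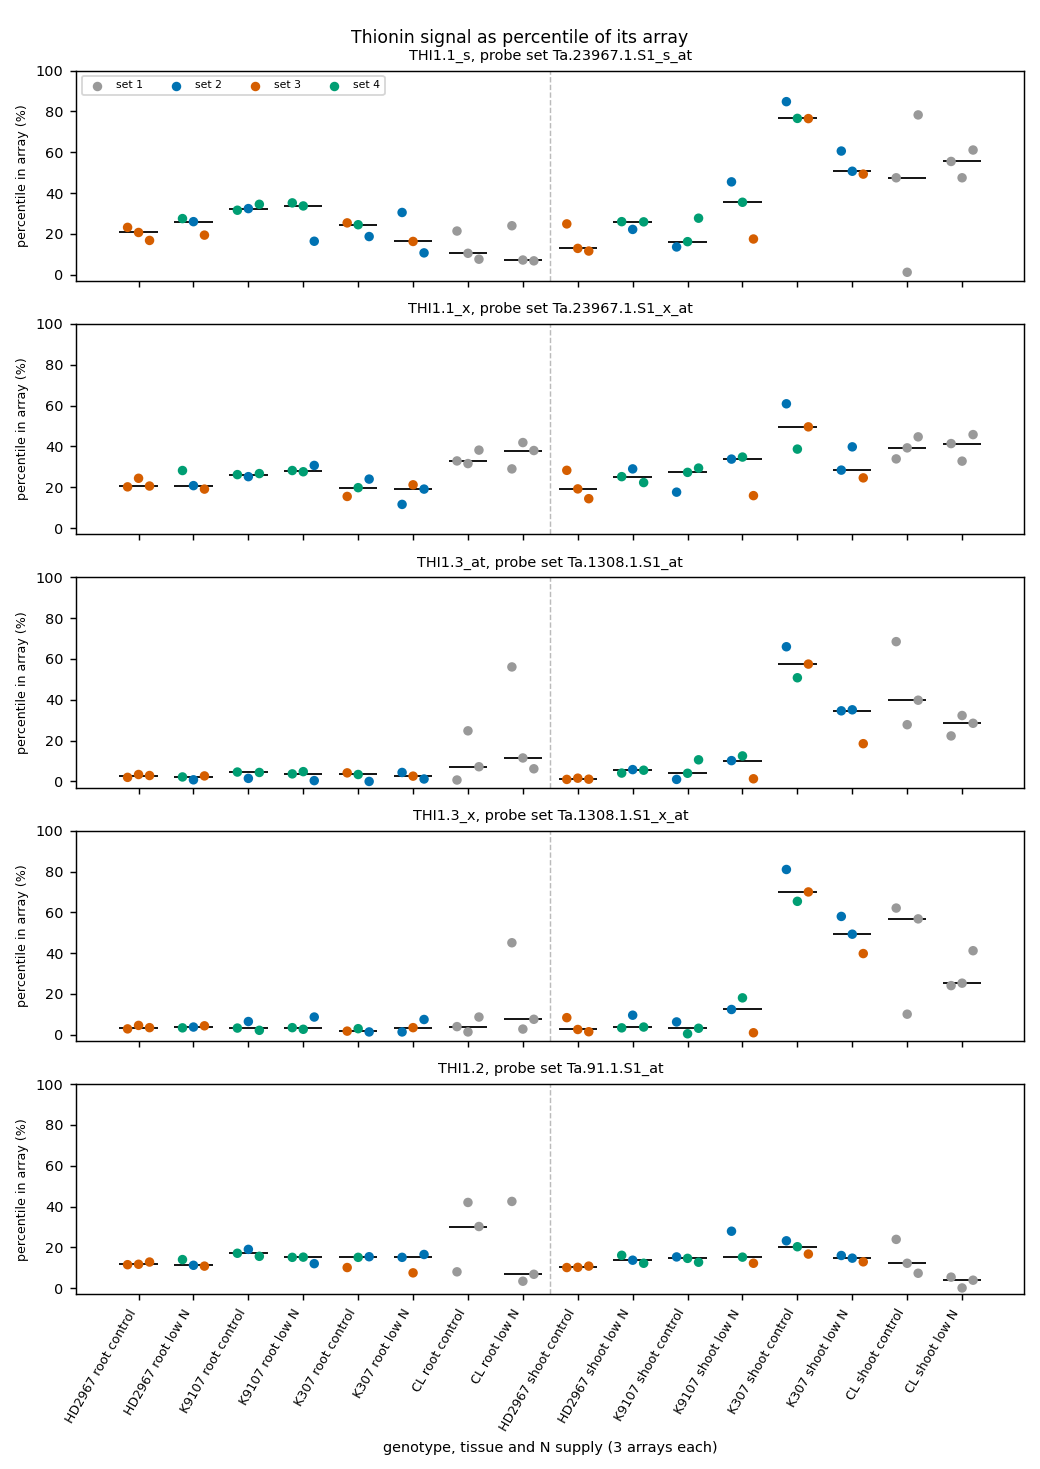
Percentile of each thionin probe set among all probe sets of its array (vertical axis, %) for the 48 arrays (points, coloured by set of array medians) by group (horizontal axis), with horizontal bars at the median of 3 arrays. K307 control shoots lie at the 38.7th percentile or higher for the 4 probe sets of THI1.1 and THI1.3, while THI1.2 stays at or below the 23.2nd in them.

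Shoots were set against roots to ask whether the signal depends on tissue. This contrast was not used to choose the genes, but it shares the K307 shoot arrays with the one that was. Its p-values for K307, at control and at low N, are therefore not independent of that choice. At control N, all 4 probe sets were higher in K307 shoots than in K307 roots. The difference was 4.55 ± 0.25 (estimate ± SE, log2) for THI1.3_x, a 23.4-fold difference (limma, adjusted p = 2.34e-16). It was 4.07 ± 0.37 for THI1.1_s, or 16.9-fold (limma, adjusted p = 8.25e-11). THI1.3_at differed by 3.41 ± 0.25 and THI1.1_x by 1.80 ± 0.24 (limma, adjusted p = 4.34e-13 and 2.74e-07). Of all probe sets tested in this contrast, 11.9% were called higher in shoots, and the median difference over all of them was -0.07. In whole organs, fewer cells that make a transcript and less transcript per cell cannot be told apart.

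The tissue difference was present in each set of arrays that held 1 K307 control shoot and 1 K307 control root array. For THI1.3_x the shoot array exceeded the root array by 5.52, 4.33 and 3.80 on the log2 scale in sets 2, 3 and 4. For THI1.1_s the same differences were 4.98, 3.65 and 3.59. For THI1.1_x they were 2.40, 1.95 and 1.03. With every array floored at its own median, all 4 calls held, but the K307 root signals lay below that floor. The fitted differences shrank to 2.48 for THI1.1_s, 0.29 for THI1.1_x, 0.63 for THI1.3_at and 1.80 for THI1.3_x. In K307 control shoot arrays 2 and 3, THI1.1_x also lay below the floor, at the 38.7th and 49.6th percentile. Its floored difference and call therefore rest on array 1 alone.

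At low N, 3 of the 4 probe sets were higher in K307 shoots than in K307 roots, where 10.6% of all probe sets were called higher. THI1.3_x differed by 2.49 ± 0.25, THI1.1_s by 2.02 ± 0.37 and THI1.3_at by 1.29 ± 0.25 (limma, adjusted p = 6.53e-10, 7.98e-05 and 0.000158). THI1.1_x, at 0.59 ± 0.24, did not pass (limma, adjusted p = 0.0741). The call of THI1.3_at was lost after quantile normalization again (limma, adjusted p = 0.0586). With every array floored at its own median, none of the 4 was called at low N; in these shoots the members lay between the 18.5th and the 60.6th percentile.

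HD2967 and K9107 showed no tissue difference in either gene that passed the test. Over both genotypes and both N supplies the 16 estimates of shoot minus root lay between -0.69 and 0.43, with SEs of 0.24 to 0.38, and 0 of 16 passed (limma, smallest adjusted p = 0.209, none under 0.05 unadjusted). In the same contrasts 21.3% (HD2967, control), 22.8% (K9107, control), 18.7% (HD2967, low N) and 19.9% (K9107, low N) of all probe sets were called in either direction. In CL, THI1.3_x was higher in control shoots by 0.74 ± 0.25 (limma, adjusted p = 0.0351), 1 of 4 members against 6.86% of all probe sets called higher. That call was lost when any of the 3 CL control root arrays, or CL control shoot array 1 or 3, was left out (adjusted p up to 0.223), and without CL control shoot array 2, 3 members were called. At low N, 0 of 4 were called in CL, against 13.0% of all probe sets in either direction.

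**Figure D3:**
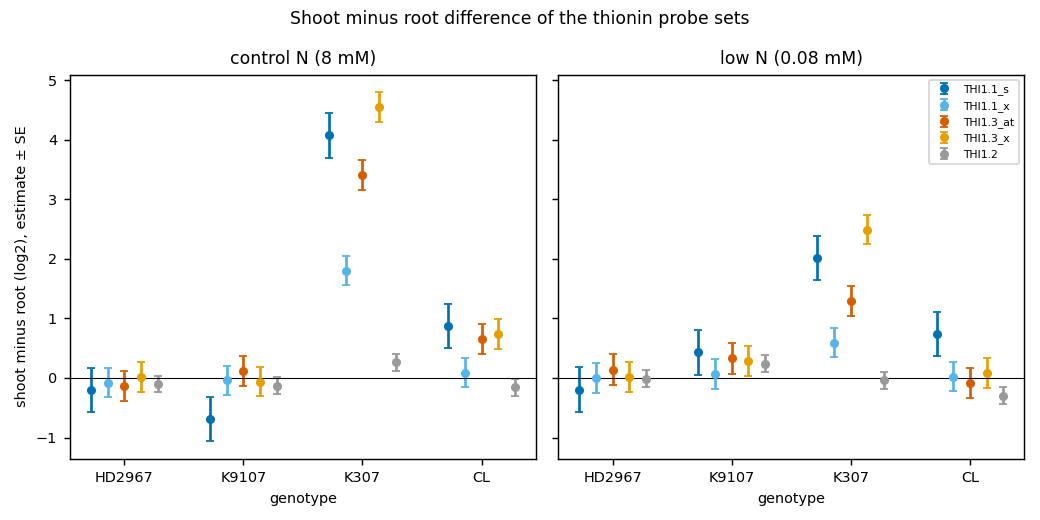
Shoot minus root difference (vertical axis, log2, estimate ± SE from the fit of all 48 arrays) of each thionin probe set in the 4 genotypes (horizontal axis), at control N (left) and low N (right). K307 stands apart at control N, with estimates of 1.80 to 4.55 for THI1.1 and THI1.3 and 0.26 for THI1.2.

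The difference between genotypes was itself tested among HD2967, K9107 and K307, whose arrays lie in sets 2 to 4. These tests use the K307 shoot arrays from which THI1.3 was chosen, so the p-values are not independent of that choice. At control N the shoot minus root difference varied among the 3 genotypes for all 4 probe sets, where 3.60% of all probe sets were called (limma F-test, adjusted p = 1.04e-07 for THI1.1_s, 0.000489 for THI1.1_x, 7.59e-09 for THI1.3_at and 3.72e-12 for THI1.3_x). For THI1.3_x the K307 difference exceeded that of K9107 by 4.61 ± 0.35 and that of HD2967 by 4.54 ± 0.35. For THI1.1_s the excess was 4.77 ± 0.53 over K9107 and 4.28 ± 0.53 over HD2967. All 4 members passed in both pairs, where 1.63% (over K9107) and 1.05% (over HD2967) of all probe sets were called higher. Without the set term, THI1.1_x lost its call in the F-test and in both pairs (limma, adjusted p = 0.152, 0.179 over K9107 and 0.204 over HD2967). At low N only THI1.3_x passed the F-test (limma, adjusted p = 2.27e-05), 1 of 4 against 1.06% of all probe sets; THI1.1_s had an adjusted p of 0.0548 in that limma test. In pairs at low N, the K307 difference of THI1.3_x exceeded that of HD2967 by 2.48 ± 0.36 and that of K9107 by 2.21 ± 0.36 (limma, adjusted p = 4.92e-05 and 0.00057). THI1.1_s passed over HD2967 by 2.22 ± 0.53 (limma, adjusted p = 0.0375) and not over K9107, at 1.59 ± 0.53 (limma, adjusted p = 0.309). These were 2 of 4 members over HD2967, against 0.304% of all probe sets called higher, and 1 of 4 over K9107, against 0.145%. The call of THI1.1_s was lost in 10 of the 12 fits that left out 1 array, with adjusted p up to 0.157, and held only without K307 root low N array 1 or K307 shoot low N array 2.

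Shoots of different genotypes were compared within each N supply. These contrasts use the K307 shoot arrays from which THI1.3 was chosen, so their p-values are not independent of that choice. At control N, K307 exceeded HD2967 in all 4 probe sets. The differences were 4.01 ± 0.33 for THI1.3_x, 3.94 ± 0.52 for THI1.1_s, 3.14 ± 0.31 for THI1.3_at and 1.46 ± 0.35 for THI1.1_x (limma, adjusted p = 5.22e-07, 0.000144, 3.94e-06 and 0.0269). Of all probe sets, 1.74% were called higher in K307. The call of THI1.1_x was lost without HD2967 control shoot array 2 or 3 or K307 control shoot array 1 or 3 (adjusted p up to 0.389), after quantile normalization again (0.0876) and without the 12 CL arrays (0.0594). K307 also exceeded K9107 in all 4, by 4.61 ± 0.30, 4.48 ± 0.48, 3.30 ± 0.28 and 1.66 ± 0.32 for the probe sets in the same order, with 3.62% of all probe sets called higher. Here THI1.1_x was lost without K9107 control shoot array 1 (adjusted p = 0.0977) and without the set term (0.136). Between HD2967 and K9107 shoots no member passed (0 of 4, against 2.11% of all probe sets in either direction). The control shoots of these 2 genotypes share no set of arrays, so their difference rests on the set term alone. K307 and HD2967 control shoots share only set 3, which holds 1 K307 control shoot array. The F-test among the 3 genotypes called all 4 members and 7.39% of all probe sets.

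In low N shoots K307 exceeded HD2967 by 2.44 ± 0.33 for THI1.3_x and 1.27 ± 0.30 for THI1.3_at (limma, adjusted p = 0.000144 and 0.036), 2 of 4 against 0.912% of all probe sets. The second of these calls was lost whenever 1 of the 6 arrays was dropped, with adjusted p from 0.0583 to 0.281. K307 exceeded K9107 by 2.09 ± 0.30 for THI1.3_x (limma, adjusted p = 0.000373), 1 of 4 against 0.763%. Between HD2967 and K9107 again no member passed (0 of 4, against 2.30% in either direction). The F-test among the 3 genotypes called 2 of 4 members, both of THI1.3, and 3.17% of all probe sets; THI1.3_at was lost from it whenever 1 of the 9 arrays was dropped.

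In roots no member passed the F-test among the 3 genotypes, at control N (0 of 4, against 9.02% of all probe sets) or at low N (0 of 4, against 6.39%). At control N the HD2967 and K9107 roots share no set of arrays, so their difference rests on the set term alone. The 24 pairwise root differences lay between -0.43 and 0.35. One of them was under 0.05 unadjusted, THI1.1_x, lower in K307 than in K9107 at low N by 0.43 ± 0.15 (limma, adjusted p = 0.171).

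Low nitrogen was then set against control in roots, which the choice of the genes did not use. Neither gene passed the test in the roots of any genotype. The 16 estimates lay between -0.21 and 0.26 on the log2 scale, with SEs of 0.13 to 0.26, and 0 of 4 members passed in each genotype (limma, smallest adjusted p = 0.613, none under 0.05 unadjusted). The highest of them became 0.72 after quantile normalization again. HD2967 control and low N roots share only set 3, which holds 1 HD2967 low N root array. Of all probe sets, 3.36% were called for HD2967, 0.907% for K9107, 1.99% for K307 and 2.04% for CL. Averaged over genotypes the estimates were between -0.06 and 0.10, with 0 of 4 called against 6.57%. A difference in root response was called in no member among the 4 genotypes (0 of 4, against 1.46%) or among the 3 without CL (0 of 4, against 0.451%) by the F-test. The methods' t-test, at their threshold of 0.1, called 0 of 4 members in the roots of each genotype, against 13.6% of all probe sets for HD2967, 10.5% for CL, 10.1% for K307 and 3.14% for K9107.

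In shoots the nitrogen values describe how THI1.3 came to be chosen. The K307 low N arrays 1, 2 and 3 had log2 signals of 5.26, 4.44 and 4.56 for THI1.1_s. They had 2.99, 3.64 and 3.06 for THI1.1_x and 3.34, 3.33 and 2.75 for THI1.3_at. For THI1.3_x they had 5.03, 4.33 and 3.93. All 3 lay below all 3 control arrays in each of the 4 probe sets. How many of all probe sets part these arrays in the same way was not counted.

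The fitted low minus control difference in K307 shoots was -2.26 ± 0.47 for THI1.1_s, -1.36 ± 0.31 for THI1.1_x, -2.05 ± 0.28 for THI1.3_at and -2.04 ± 0.30 for THI1.3_x. Whether the probes of THI1.1 and THI1.3 share transcripts was not tested. Within set 2 the 4 differences were -2.75, -1.98, -2.38 and -2.48, and within set 3 -2.24, -1.54, -2.42 and -2.27. K307 shoots at low N still lay above the 30 arrays that were neither K307 shoots nor CL in percentile for THI1.1_s, THI1.3_at and THI1.3_x, while THI1.1_x, at the 24.6th to 39.8th percentile, overlapped with them. The share of all probe sets that stand above those arrays in this way was not counted.

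On the log2 scale the shoots of the other genotypes gave smaller differences. The 4 estimates lay between -0.47 and -0.17 in HD2967, between 0.22 and 0.95 in K9107, and between -0.48 and -0.05 in CL, with SEs of 0.27 to 0.61. HD2967 low N and control shoots share no set of arrays, so its values rest on the set term alone. CL lies on another scale, so its log2 values cannot be set beside those of K307. From control to low N in CL shoots, the median percentile of THI1.3_x went from 56.8 to 25.3 and of THI1.3_at from 39.8 to 28.5. That of THI1.1_s rose from 47.5 to 55.5 and of THI1.1_x from 39.3 to 41.4. In K307 shoots THI1.3_x went from 70.0 to 49.3. The CL arrays of THI1.3_x overlapped, at 10.1 to 62.1 and 24.1 to 41.2. Whether the shoot responses differ among genotypes was not tested, because that difference is built from the values from which THI1.3 was chosen.

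Across arrays the 4 probe sets moved together. Over the 24 shoot arrays, with the mean of each set removed, Pearson's r between members was 0.82 to 0.97. THI1.3_at and THI1.3_x had the highest value, 0.97. THI1.1_s and THI1.3_x, of different genes, had 0.95. Spearman's rho between members was 0.66 to 0.97. These coefficients are a description: the arrays share groups and sets, the probe sets may share transcripts, and the 6 K307 shoot arrays carry most of the range.

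**Figure D4:**
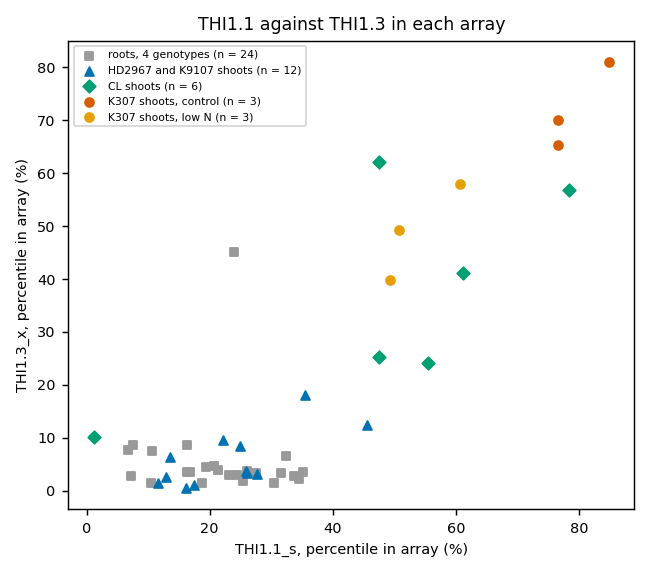
Percentile within the array of THI1.1_s (horizontal axis, %) and of THI1.3_x (vertical axis, %) for each of the 48 arrays. The 3 K307 control shoots lie highest on the vertical axis (65.4 to 81.0), 5 CL shoots and the 3 K307 low N shoots lie between them and the remaining arrays, and 1 CL root array (low N array 1) lies apart at 45.1.

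The related gene THI1.2 was set beside the members. Its probe set lay at the 16.7th to 23.2nd percentile in K307 control shoots and at the 12.9th to 16.0th in K307 low N shoots, against a median of 13.8 in the 30 arrays outside K307 shoots and CL. Its shoot minus root difference in K307 was 0.26 ± 0.14 at control N (limma, adjusted p = 0.174). Its r with the 4 members over the 24 shoot arrays was 0.38 to 0.47.

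By Pearson's r, the 196 other probe sets with an informative gene name were less like the members than the members were like each other. That does not hold for Spearman's rho over the 24 shoot arrays. THI1.3_x had a rho of 0.78 with the gibberellin 20-oxidase gene GA20OX1-A, above the 0.66 of THI1.1_x with THI1.3_at. Over the 24 shoot arrays the highest r was 0.70 for THI1.1_s, with AGA.1. For THI1.1_x, THI1.3_at and THI1.3_x it was 0.67, 0.72 and 0.70, each with the same probe set of rbcl, the large subunit of Rubisco. Other names within the first 5 of at least 1 member were Hmgb3, a high-mobility group protein, amy1, an alpha-amylase, GA20ox1d and GA20OX1-A, gibberellin 20-oxidases, and TTHV, with r of 0.59 to 0.68. Over all 48 arrays that rbcl probe set came first for 3 members, and GA20ox1d came first for THI1.3_x (r = 0.74).

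Other defence genes were counted from a list, which matched 6 probe sets: THI1.2, 2 of the xylanase inhibitor XIP-I, 2 of the glucanase gene Glc1 and 1 of PR5, a thaumatin-like protein. In K307 at control N, 1 of the 6 was higher in shoots and 0 were lower, with a median difference of 0.06 against -0.07 over all probe sets; 11.9% of all probe sets were called higher. That one was PR5, higher by 2.92 ± 0.70 (limma, adjusted p = 0.00169), and PR5 was higher in shoots of HD2967 and K9107 too, by 3.34 ± 0.70 and 5.75 ± 0.70 (limma, adjusted p = 0.000414 and 5.73e-08). Between K307 control shoots and those of HD2967 or K9107, 0 of the 6 passed in either direction, against 3.42% and 6.21% of all probe sets. In the roots at low N, averaged over genotypes, 1 of the 6 was lower, against 3.08% of all probe sets, a probe set of Glc1, by 0.48 ± 0.13 (limma, adjusted p = 0.0311). By genotype its low minus control difference was -1.50 in HD2967 (limma, adjusted p = 0.00695), -0.52 in K307, -0.14 in CL and 0.22 in K9107, and only the first passed.

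Because the synonyms name grain proteins, the level of other grain protein genes was looked up in the same arrays, from a list that was chosen and trimmed after values had been seen and is therefore given as a description with no test. The 20 probe sets of gliadins, glutenins, amylase and trypsin inhibitors and serpins had a median percentile of 16.1 to 21.0 in the 3 K307 control shoot arrays and 15.8 to 20.4 in the 3 K307 low N shoot arrays. The highest of them, of the glutenin gene abu-7, had a median percentile of 69.7 over the K307 control shoots and 62.8 over the K307 low N shoots, and the highest was 72.1, also of abu-7, over the HD2967 and K9107 shoots. Their differences between K307 and HD2967 control shoots lay between -0.71 and 0.41 on the log2 scale, where the 4 thionin probe sets had 1.46 to 4.01. They lay between -0.85 and 0.87 against K9107 control shoots. In low N shoots they lay between -0.53 and 1.33 against HD2967 and between -0.53 and 1.64 against K9107, ranges that reach into those of the thionins. K307 shoots held the photosynthesis marker OEE1 at the 99.4th to 99.7th percentile, within the range of all shoots.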

How the data were processed

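The authors deposited log2 signals; the submitters' processing notes name RMA, and the series' design text names GeneSpring 14.5 and a t-test at p of 0.1. All 48 arrays and 61179 probe sets were analysed, with 111 control probe sets left out. No background correction was possible, since the probe-level values were not used here. Arrays were sorted by median and split at gaps over 0.1 log2 into 4 sets. limma 3.58.1 in R 4.3.3 fitted group and set, in 24 root arrays, 24 shoot arrays and all 48 (tissue), with Benjamini-Hochberg adjustment over all probe sets and a threshold of 0.05; the fits were tested on simulated data. The members and gene lists were chosen with earlier results of these data known. All member probe sets are named. Likeness names the 5 most correlated probe sets with an informative gene name. The F-test of tissue differences at low N, pairwise tests of tissue differences and the grain list were added after levels were seen. Replicate numbers were checked as pairs by the correlation of same-numbered deviations: every pair was over 0.1 only between N supplies in CL shoots (0.115 to 0.228) and between tissues in K9107 low N (0.169 to 0.271). No sequences were given for these genes, so none are shown. The number of arrays limits the precision.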

Additional observations from a re-analysis of the deposited data

Results flagged for a closer look

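The difference between shoot and root was not the same in HD2967, K9107 and K307. At control N the limma F-test of that difference passed for all 4 probe sets, against 3.60% of all probe sets. Its adjusted p was 1.04e-07 for THI1.1_s, 0.000489 for THI1.1_x, 7.59e-09 for THI1.3_at and 3.72e-12 for THI1.3_x. THI1.1_x lost this call without the set term (limma F-test, adjusted p = 0.152), and flooring left 2 of 4. At low N the F-test passed for THI1.3_x (limma, adjusted p = 2.27e-05), 1 of 4 against 1.06% of all probe sets. That call was lost after quantile normalization again (limma F-test, adjusted p = 0.206). The shoot minus root difference of THI1.3_x at low N was 2.49 ± 0.25 in K307. The K307 shoot arrays behind these values are also those from which THI1.3 was chosen. No group was tested for a single outlying array, because each holds 3.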

How the results depend on the processing

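All 4 members stayed higher in K307 control shoots than in K307 roots under every alternative run: without the set term, with quantile normalization again, with arrays floored at their own median, without the 12 CL arrays, with limma's trend and robust options, with a replicate block, and without each of the 6 arrays. Floored, THI1.1_x rested on K307 control shoot array 1 alone. Of 475 counts of members called, 413 stayed within 1.5 times the main count, including 0 kept at 0 and 4 cut to 3. Nearly all 62 that moved had calls in the main fit. Flooring, which removes differences below the array median by construction, left 2 of 4 in the tissue F-test at control N, in K307 against K9107 and against HD2967 for the tissue difference, and in control shoots for K307 against HD2967, K307 against K9107 and the F-test among 3 genotypes. It left 0 in each low N comparison with calls (K307 shoot against root, the tissue F-test and both of its pairs, and in shoots both pairs and the F-test), 0 in CL control, and turned THI1.3_at to -0.02 for K307 low N shoot minus root and to -0.13 for K307 minus HD2967 in low N shoots. Quantile normalization again gave 3 calls in CL control and 1 in CL low N, and 0 at low N for K307 against HD2967, K307 against K9107 and the F-test among genotypes in shoots, and for the tissue F-test and both of its pairs; it also ended the calls of THI1.3_at for K307 low N shoot against root (adjusted p = 0.0586) and of THI1.1_x for K307 against HD2967 in control shoots (0.0876). Without the set term, 0 were called in CL control, and 1 at low N for K307 against HD2967, both in shoots and in the tissue difference, and for the F-test among genotypes in shoots; THI1.1_x lost its calls at control N for K307 against K9107 in shoots (adjusted p = 0.136), the tissue F-test (0.152) and its pairs with K9107 (0.179) and HD2967 (0.204). Without the 12 CL arrays the low N tissue F-test called 2, and THI1.1_x lost its call for K307 against HD2967 in control shoots (0.0594). Leaving out 1 array gave 0 to 3 calls in CL control, 1 to 2 in the low N tissue F-test (2 without K9107 root low N array 3, K9107 shoot low N array 1 or K307 root low N array 1), 1 to 2 for K307 against HD2967 in the low N tissue difference, and 1 in low N shoots for K307 against HD2967 and for the F-test among genotypes. The K307 shoot low minus control difference of THI1.1_x was -0.36 when floored and -1.80 to -0.92 without 1 array (the first without control array 2, the second without control array 1), and that of THI1.3_at -0.74 when floored and -1.63 after quantile normalization. No root N call appeared under any alternative. The causes were not tested.

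With the replicate block, 0 members were called in CL control shoots against roots, 2 in the low N tissue F-test, and THI1.1_x lost its call for K307 minus HD2967 in control shoots (adjusted p = 0.0774); it changed no other count of members beyond 1.5 times. The numbers are not known to mark shared pots. Over all probe sets, counts moved more: without the set term the K307 control tissue contrast called 7354 in place of 15466, the tissue F-test at control N 297 in place of 2200 and the average root N response 742 in place of 4018, and quantile normalization gave 10458, 886 and 2711. Restricting to probe sets with a mean percentile of at least 50 removed all 4 members, so it gave no value for them. The low signal of the members outside K307 and CL shoots limits what can be said of differences there.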
